A study of Mus musculus with 9 samples.

Results

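The genes described here encode the subunits of RNA polymerases I, II and III and the general transcription factors that bring these enzymes to promoters. They were taken by name: every protein-coding gene whose symbol is a Taf gene with a number, a Gtf2, a Gtf3, a Polr1, a Polr2 or a Polr3 gene, together with Tbp and Maf1 and without the germ-cell variants Taf7l and Gtf2a1l. This gave 73 genes of 38674 in the table, 21019 of which are protein coding. Levels were measured in the testes of 9 male C57BL/6 mice. By genotype there were 3 Pfn3+/+ animals (WT), 3 Pfn3+/- animals (Het) and 3 Pfn3-/- animals (KO), the mutant alleles having been made with CRISPR/Cas9 and each deposited library being 1 animal. Pfn3 encodes a testis-specific profilin. The males were sexually mature and a few months old, and which of the mutant alleles the sequenced animals carried is not given in the sources used here. The values come from QuantSeq, a method that reads the 3' end of polyadenylated RNA, so a transcript gives about 1 read whatever its length. They are normalized counts, that is reads divided by 1 size factor per animal, and they were not divided by gene length.

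Each RNA polymerase serves its own promoters. Polymerase I transcribes the large ribosomal RNA precursor, polymerase II the messenger RNAs, and polymerase III transfer RNAs, 5S ribosomal RNA and other small RNAs. At a polymerase II promoter TFIID, built of the TATA-binding protein TBP and its associated factors (TAFs), is joined by TFIIA, TFIIB, TFIIF, TFIIE and TFIIH, while polymerase I uses SL1 and polymerase III uses TFIIIA, TFIIIB and TFIIIC. MAF1 represses polymerase III. Male germ cells are known for additional versions of several of these factors, among them TBPL1, TAF7L and the TFIIA subunit encoded by Gtf2a1l.

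The libraries held 3375546 to 4287335 reads counted on genes, and the detection limit used here, 3 reads in a library, equalled 2.58 to 3.71 on the normalized scale. Such a limit covers counting error only. Reads on the 73 genes made up 0.287 to 0.466% of a library. Pfn3 itself was still counted in every KO animal, at 74.7 to 279 normalized counts against 373 to 592 in WT, and 3' reads that lie outside a deleted part check nothing. Elongating spermatid markers (4 of 4 measured, Tnp1, Tnp2, Prm1 and Prm2) summed to 233289 to 249362 in WT, 179063 to 214894 in Het and 123388 to 199672 in KO animals, and the 5 round spermatid markers to 4373 to 4924, 3790 to 4518 and 2540 to 3709. The 5 Leydig, 5 Sertoli, 5 spermatocyte and 5 spermatogonia markers overlapped between the genotypes in their sums, and 3 of 4 epididymis markers were at or under 3 reads in every animal. Singly, the spermatocyte markers Sycp1 and Sycp3 were higher in every KO than in every WT animal. Sycp1 was at 984 to 1226 in WT and 1579 to 2025 in KO, and Sycp3 at 455 to 674 and 845 to 976. Wt1 (Sertoli) and Gfra1 (spermatogonia) were likewise higher and Stra8 (spermatogonia) lower, and the others of these 4 cell types overlapped between KO and WT. In whole testis, fewer cells of a type and less RNA per cell cannot be told apart.

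The 73 genes were expressed at moderate levels, with a median of 111 normalized counts over genes (mean of 9 animals) against 39.3 for the 17329 protein-coding genes with any read. Of these, 40 had a mean of at least 100, 30 lay between 10 and 100, and 3 lay under 10. No gene was at or under 3 reads in all 9 animals, and 63 were above 3 reads in every animal. The 5 highest were Taf9 (988), Gtf2a2 (968), Gtf2h1 and Gtf2f1 (697 each) and Gtf2e2 (633). The mean of Taf9 rests on Het 2 and KO 1, since the other 7 animals lay between 216 and 289, and its median over the 9 animals was 236 against 977 for Gtf2a2. The spread between animals was wide for many of them: between animals of the same genotype, 30.9 to 71.4% of the genes differed by more than 2 SD of counting error, against 27.6 to 59.3% over all genes. The plot of levels by gene shows that most genes kept to a narrow band while some had 1 or more animals far from the rest.

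**Figure D1:**
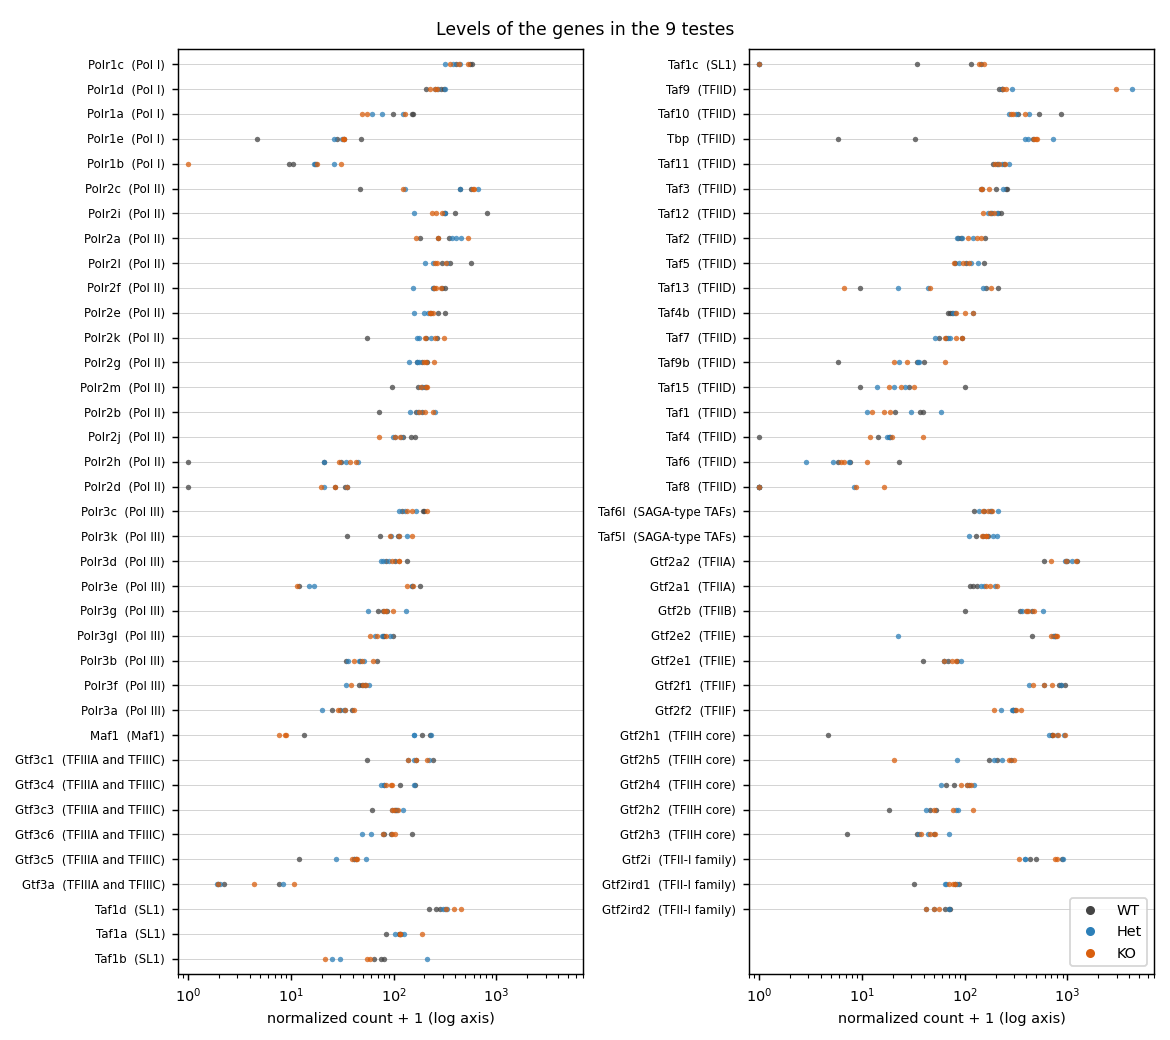
Normalized count + 1 (log axis) of the genes reported by name, 1 point per animal, coloured by genotype and grouped by complex. Most genes lie within a narrow band, while Taf9 reached 4257 and Gtf2h1 had 1 animal, Tbp 2 and Taf1c 4 far below the others.

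Within polymerase I the ranking ran from Polr1c (443), a subunit shared with polymerase III, to Polr1b (15.5), the second largest subunit. Among the 13 polymerase II genes the highest was Polr2c (mean 400.3) and the lowest Polr2d (25.2), which encodes the RPB4 subunit of the stalk, and Polr2a, which encodes the catalytic subunit with the C-terminal repeat domain, had a mean of 331. The 10 polymerase III genes were lower, from Polr3c (156) to Polr3a (30.7), the largest subunit, with a median of 88.2 against 207 for polymerase II. These are reads per gene and not numbers of protein. The alternative subunits Polr3g and Polr3gl, of which a polymerase III molecule carries 1, were close to each other (85.2 and 77.5), and Polr3g was the higher in 3 of 9 animals.

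In TFIID the means ran from Taf9 (988) to Taf8 (3.41), but by the median over animals Tbp (460.2) and Taf10 (328) were above Taf9 (236). Taf8 had reads in 3 animals only (7.45 in Het 2, 7.73 in KO 1 and 15.5 in KO 2), and Taf6 had a mean of 7.55. With Gtf3a (3.63), the gene for TFIIIA that opens 5S ribosomal RNA genes, these were the 3 genes too low for the tests below. Taf10 stood at 411 and Tbp at 387. TFIIA was led by Gtf2a2 (968), with Gtf2a1 at 156, and TFIIB, the bridge between TBP and the polymerase, is a single gene, Gtf2b (390.5). Within TFIIF Gtf2f1 was at 697 and Gtf2f2 at 285, within TFIIE Gtf2e2 was at 633 and Gtf2e1 at 69.6, and within the TFIIH core Gtf2h1 was at 697 and Gtf2h3 at 40.9. Of the 6 TFIIIA and TFIIIC genes Gtf3c1, the largest TFIIIC subunit, was highest at 166. SL1 ran from Taf1d (318) to Taf1c (64.4), and the namesake Taf1, the scaffold of TFIID, was at 26.3. The TAF-like genes of SAGA-type complexes, Taf6l (165) and Taf5l (158), and the TFII-I family from Gtf2i (597) to Gtf2ird2 (56.9) complete the list.

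Genes with a second version in the genome differed in how much of each was read. Taf9 exceeded Taf9b in 9 of 9 animals (means 988 and 31.0, ratios by animal from 3.75 to 120.3), and Taf4b, a germ-cell paralog of Taf4, exceeded it in 9 of 9 (87.9 and 16.9). The germ-cell variants left out by the naming rule were all above their general counterparts: Gtf2a1l above Gtf2a1 (1865 and 156), Taf7l above Taf7 (154 and 71.7) and Tbpl1 above Tbp (932 and 387), each in 9 of 9 animals. Tbpl2, the oocyte paralog of Tbp, had 0 reads in every animal. The 3 expressed variants were not called between any genotypes, and none had an unadjusted limma p under 0.05.

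The promoters of the genes were compared in letters, since they are the DNA on which these factors themselves act. RefSeq promoter sequences on GRCm38.p6, from 250 bases before to 50 after a start, were at hand for 62 of the 73 genes (74 promoters), Maf1 not among them. Counting both strands, TATAAA occurred in 12.2% of the 74 promoters and in 13.6% of all 32851, and CCAAT in 31.1 and 37.4%. GGGCGG (GC box) occurred in 64.9 against 35.7%, CCGGAAG (the core bound by ETS factors) in 35.1 against 8.86% and CACGTG (E-box) in 23 against 7.15%. The 74 promoters were also richer in G and C, with a median of 59.3% against 52.7%. These shares are descriptions, and neither a match nor its absence says that a factor binds there. The 100 bases just before the annotated gene are shown, 5' to 3', for 4 genes whose levels stepped between animals, with these motifs in capitals on either strand. Taf13 holds TATAAA, an ETS core and a GC box, Taf1c holds CCAAT, a GC box and an ETS core, Tbp holds a GC box, and Taf9 holds none of the 5 in this window.
Taf13, chr3:108571598-108571697, plus strand: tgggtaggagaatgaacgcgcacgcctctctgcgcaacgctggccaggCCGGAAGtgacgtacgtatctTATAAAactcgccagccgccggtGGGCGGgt
Taf1c, chr8:119605223-119605322, minus strand: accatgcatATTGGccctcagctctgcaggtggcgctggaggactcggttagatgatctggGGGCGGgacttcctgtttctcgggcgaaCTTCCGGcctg
Tbp, chr17:15499788-15499887, plus strand: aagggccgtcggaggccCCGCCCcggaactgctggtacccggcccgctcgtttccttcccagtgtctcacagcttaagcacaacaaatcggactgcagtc
Taf9, chr13:100651479-100651578, plus strand: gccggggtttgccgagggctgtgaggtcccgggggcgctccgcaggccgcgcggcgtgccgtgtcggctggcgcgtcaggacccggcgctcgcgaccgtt

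KO and WT testes were compared first, since the study asks what the loss of Pfn3 does to gene expression. No member of the transcription machinery was called different: of 70 genes tested, 0 passed an adjusted p under 0.05 (limma, Benjamini-Hochberg over all 14223 genes) with a log2 fold change over 1.5, the rule under which 0.0352% of all genes were called. edgeR's quasi-likelihood test on the recovered reads also called 0 of the 70 and 0.0352% of all genes. DESeq2's Wald test called 1, Maf1, where it called 0.446% of all genes. Unadjusted limma p under 0.05 was reached by 6 of the 70 (2 higher and 4 lower in KO), against 8.07% of all genes. The median log2 difference of the 70 was 0.07, beside 0.02 over all genes tested, with 40 above and 30 below 0. When the reads of each library were used for scaling instead of the authors' factors, the median of all genes moved to 0.22. The split of the 70 members then became 48 above and 22 below. Of all genes, 65.4% lay above 0 with that scaling and 51.4% with the authors' factors. In 14 of the 70 genes the 3 KO animals did not overlap the 3 WT animals, and 19.9% of all genes did the same.

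Maf1 was the gene that stood out. The gene (ENSMUSG00000022553) lies on chromosome 15 of GRCm38 from 76351294 to 76354380, plus strand. It was read at 12.4, 228 and 190.2 normalized counts in the WT animals, at 157, 229 and 158 in the Het animals and at 7.73, 6.77 and 8.04 in the KO animals (10, 236 and 197 reads, then 166, 246 and 149, then 9, 7 and 9). Every KO animal was therefore below every other animal, WT 1 came next, and the remaining 5 animals lay far above.

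Maf1 fell in KO against Het, with a log2 difference of -4.40 (SE 0.24, 95% interval -4.98 to -3.82) and an adjusted limma p of 0.0170, and the Het mean was 24.1 times the KO mean. It was also called by edgeR (adjusted p = 0.0260) and by DESeq2 (adjusted p = 3.14e-22). Against WT the difference was -3.30 (SE 1.09, 95% interval -5.94 to -0.66) and the adjusted limma p was 0.610, with WT 1 at 10 reads beside 7 to 9 in the KO animals, while DESeq2 gave an adjusted p of 0.00267. Without WT 1, and with the filter eased to 2 animals so that the gene was still tested, it was -4.62 (SE 0.23) with an adjusted limma p of 0.00518.

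The call against Het was lost when animals were left out. Without KO 1, KO 2 or KO 3 the adjusted limma p was 0.138, 0.0632 and 0.0811 with differences from -4.44 to -4.33, and without a Het animal the gene no longer reached 10 in 3 animals and was not tested. With the filter eased to 2 animals, it was called without Het 1 (adjusted p = 0.0408) and without Het 2 (adjusted p = 0.0127) and not without Het 3 (adjusted p = 0.0612). With all 9 animals in 1 fit the adjusted limma p was 1. Of the neighbouring genes, Sharpin, 182 bases away on the other strand, was at 110.2, 136 and 117 in WT, 81.3, 122 and 76.2 in Het and 40.4, 101 and 76.0 in KO, below WT in every KO animal and overlapping Het. Gm35339, 51 bases away on the same strand, was at 0, 48.2 and 0 in WT and between 52.4 and 90.0 in all others. The summed elongating and round spermatid markers were also below every WT animal in every KO animal, as given above. Singly, Prm1, Acrv1, Spaca1 and Spag6l overlapped between KO and WT. The elongating sums of every Het animal were below every WT animal too, and they overlapped those of KO. The round spermatid sums were lower in every KO than in every Het animal. What part these markers had in the Maf1 result was not tested.

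**Figure D2:**
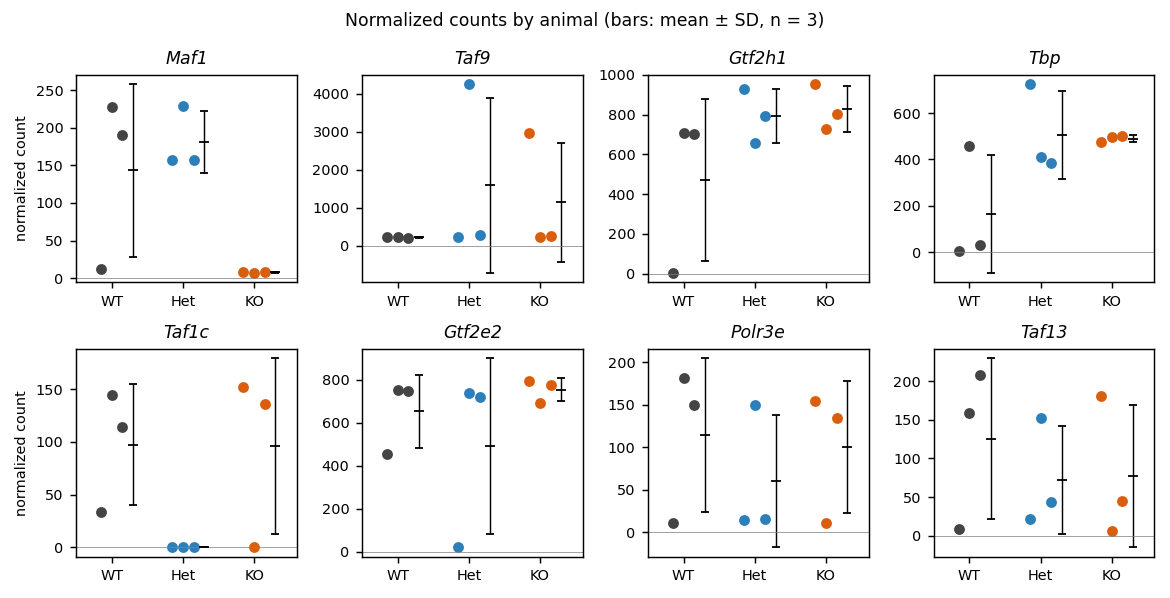
Normalized counts of 8 genes in each animal, with the mean and SD of each genotype (n = 3) beside the points. Maf1 was at 6.77 to 8.04 in the KO animals and at 12.4 in WT 1, Taf9 was high in Het 2 and KO 1 only, and Gtf2h1 was near 0 in WT 1 only.

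The other 5 genes with an unadjusted limma p under 0.05 in KO against WT differed by less, and each had an adjusted p of 0.610. Taf3, the TFIID subunit that binds trimethylated histone H3, was at 202, 251 and 255 in WT, 146, 234 and 145 in Het and 143, 171 and 148 in KO (-0.60, SE 0.20). Gtf2f1, the large subunit of TFIIF, was at 955, 869 and 823 in WT, 420.4, 856 and 597 in Het and 701, 460.5 and 592 in KO (-0.61, SE 0.21). For both genes the WT animals lay above all KO animals and Het 2 lay within the WT range.

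Taf1, the TFIID scaffold, was at 38.4, 20.3 and 35.7 in WT, 10.4, 28.9 and 58.2 in Het and 18.0, 15.5 and 11.6 in KO (-0.99, SE 0.37). The other 2 genes were higher in KO. Gtf2a1, the large TFIIA subunit, was at 119, 112 and 132 in WT, 198, 142 and 153 in Het and 177, 207 and 162 in KO (0.58, SE 0.20). Taf1d, an SL1 subunit, was at 220.4, 279.8 and 259.7 in WT, 328, 318 and 304 in Het and 448, 322 and 386 in KO (0.60, SE 0.21). For Gtf2a1 and Taf1d the WT animals were the 3 lowest of the 9. Taf1d holds small RNA genes within its exons on its own strand, and their reads cannot be told apart from its own here.

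Het against WT asks whether 1 mutant allele is enough. Again 0 of 70 genes were called by limma, where 0% of all genes were, and 0 by edgeR (0% of all genes), while DESeq2 called 1, Taf1c, and 0.133% of all genes. Unadjusted limma p under 0.05 was reached by 1 of 70, against 3.34% of all genes. The groups did not overlap in 13 of 70, against 13.3% of all genes. The median difference was 0.04, beside 0.01 over all genes.

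Taf1c, a subunit of the polymerase I factor SL1 (chromosome 8, from 119597871 to 119605222, minus strand), was read at 33.4, 145 and 114 normalized counts in WT, at 0, 0 and 0 in Het and at 152, 0 and 136 in KO. All 3 Het animals and KO 2 had no read at all, and the other 5 animals had values of at least 33.4. Taken against the limit of 3 reads per library (2.93 on average in Het), the WT mean of Taf1c (97.4) was at least 33.2 times the Het mean. This bound holds for the means only, and WT 1, at 33.4, lay nearer to that limit. Its adjusted p was 0.176 with limma, 0.910 with edgeR and 6.81e-07 with DESeq2. Dnaaf1, which overlaps its exons on the opposite strand, was at 2991, 2582 and 2141 in WT, 1074, 2233 and 1629 in Het and 1721, 1523 and 1678 in KO. The annotated overlap lies where both genes end, and QuantSeq reads 3' ends. Whether any reads were assigned to the other gene was not tested, and whether the counting used strand is not given in the sources used here.

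The next smallest p in Het against WT belonged to 4 genes, each with an adjusted limma p of 0.779. Polr2a was at 267, 178 and 348 in WT and 449, 369.7 and 405 in Het (0.67, SE 0.28), with 165, 525 and 269.9 in KO. Polr2e, a subunit shared by all 3 polymerases, was at 313, 270.1 and 228 in WT and 156, 214 and 198 in Het (-0.51, SE 0.23). Gtf3c6, a TFIIIC subunit, was at 149, 92.6 and 80.1 in WT and 48.2, 77.3 and 59.3 in Het (-0.76, SE 0.32). In these 3 genes the Het animals did not overlap the WT animals.

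Tbp (chromosome 17, from 15499888 to 15528379, plus strand) is the TBP used by all 3 polymerases. It was at 4.95, 460.2 and 31.9 in WT, 726, 409.7 and 385 in Het and 474, 495 and 500.5 in KO. WT 1 and WT 3 were thus low and the other 7 animals lay between 385 and 726, WT 2 among them. The difference was 3.44 for Het against WT (SE 1.5) and 3.45 for KO against WT (SE 1.47), with adjusted limma p of 0.779 and 0.610, and without WT 1 the first was 1.98 and the second 2.0.

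KO against Het was the only comparison in which limma called a member: Maf1, 1 of 69 genes tested, where 0.0558% of all genes were called. edgeR called the same gene and 0.0488% of all genes, and DESeq2 the same gene and 0.168%. Unadjusted limma p under 0.05 was reached by 3 of 69, against 3.56% of all genes, and the groups did not overlap in 7 of 69, against 10% of all genes. Gtf3c6, Polr2g and Polr3d were among those higher in KO, and Maf1 was lower.

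Gtf3c6 was at 101, 95.8 and 78.6 in KO against the Het values given above (0.59, SE 0.24). Polr2g, the RPB7 partner of Polr2d in the stalk, was at 142, 176 and 167 in Het and 207, 246 and 198 in KO (0.42, SE 0.17). Polr3d was at 89.8, 74.5 and 77.3 in Het and 113, 111 and 96.5 in KO (0.40, SE 0.17). Polr2k, a small subunit shared by the polymerases, was at 229.6, 176 and 169 in Het and 311, 202 and 249 in KO (0.40, SE 0.22) with overlapping groups. All 4 had an adjusted limma p of 0.973. Among the 10 polymerase III genes 9 lay above 0 in KO against Het with a median of 0.24, none of them called. So did 42 of the 69 members and 49.7% of all genes tested. The largest of the 9 differences, 0.89 for Polr3e, had an SE of 1.31. The same 10 polymerase III genes split 5 and 5 in KO against WT.

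**Figure D3:**
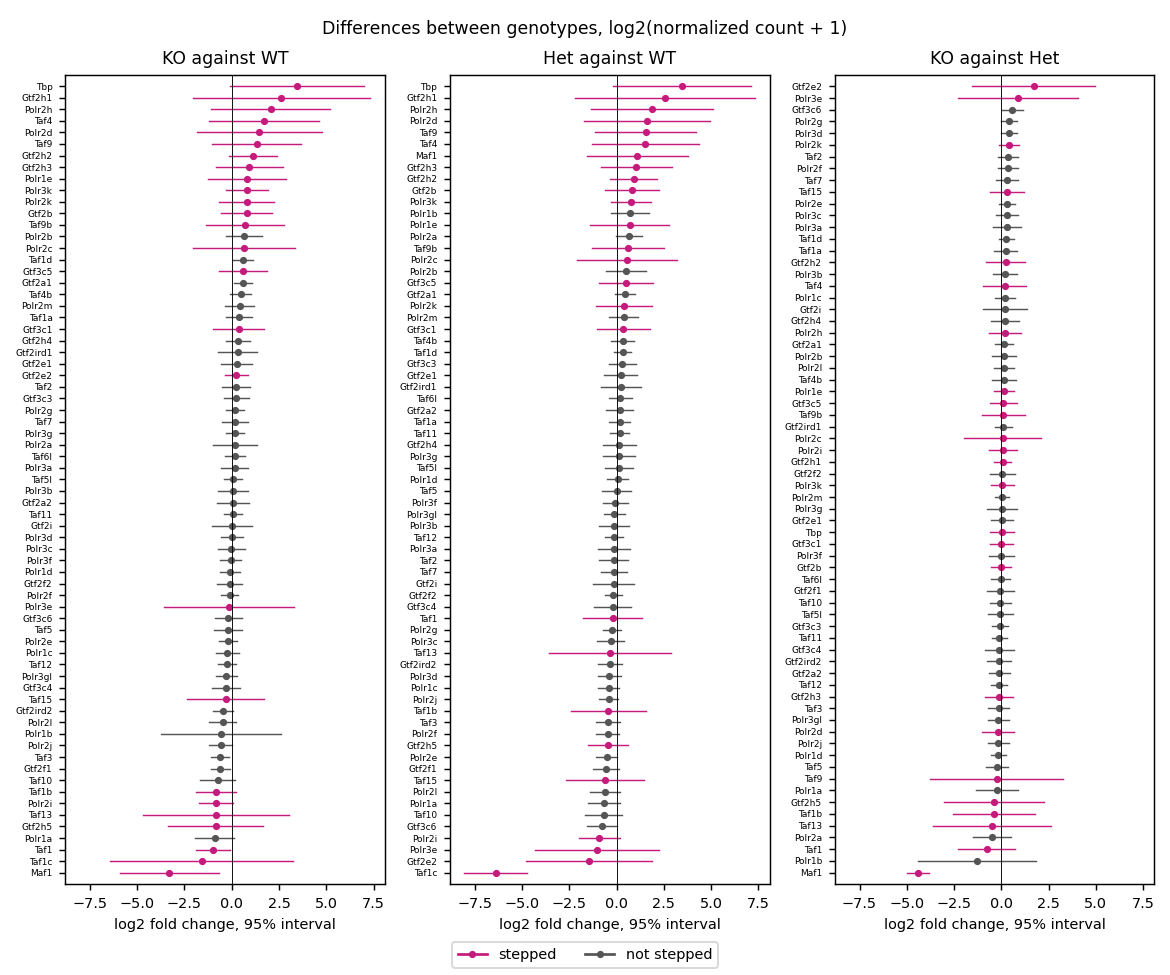
Log2 difference with its 95% interval for the tested genes reported by name in the 3 comparisons, on log2(normalized count + 1), sorted by size, with the 26 stepped genes in pink. Maf1 is at the lower end of both comparisons with KO and Taf1c at the lower end of Het against WT, and the widest intervals belong to stepped genes and Polr1b.

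The precision of these comparisons varied between genes. In KO against WT the 95% interval lay within 1 log2 unit of 0 on both sides for 26 of 70 genes, in Het against WT for 23 of 70 and in KO against Het for 49 of 69. The median half-width was 0.79, 0.85 and 0.61 log2 units. An observed difference smaller than the half-width of its gene had an interval that included 0. A call asked for more than an interval without 0, since p-values were adjusted over all genes tested and a size cutoff applied. Maf1 in KO against WT had an interval of -5.94 to -0.66 and an adjusted limma p of 0.610. Taf1c in Het against WT had an interval of -8.04 to -4.71 and an adjusted limma p of 0.176. Neither was called by limma. The stepped genes, described next, had a median SE of 0.85 in KO against WT and the others 0.27.

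Such steps between animals were counted. A gene was called stepped where its highest animal was at least 4 times its lowest on value + 1 and reached at least 30. This held for 26 of the 69 members that reached 30 (37.7%), against 31.2% of all genes that did. With value + 5 it held for 24, and with a step of 8 times for 18. By complex, 4 of 5 TFIIH core genes were stepped, 7 of 17 TFIID, 5 of 13 polymerase II, 2 of 10 polymerase III and 1 of 5 polymerase I genes, along with 2 of 4 SL1 genes, 2 of 6 TFIIIA and TFIIIC genes, Maf1, Gtf2b and Gtf2e2. None of the TFIIA, TFIIF, TFII-I or SAGA-type genes was stepped. The members that were not stepped had a median ratio of highest to lowest of 2.03.

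WT 1 was often at the low end of a step. It was the lowest animal in 14 of the 26 stepped genes, and in 25 of the 70 members with a mean of at least 10 (35.7%, against 27.9% over all genes with such a mean). Without WT 1, 11 of 69 members (15.9%) were stepped, a smaller share than the 21.3% of all genes that reached 30, and leaving out any other animal left 24 to 26. WT 1 had the fewest reads of the 9 libraries (3375546), close to KO 2 (3386131) and Het 3 (3428337). In WT 1 18229 genes were detected, against 18910 to 20566 in the others. Its Leydig markers summed to 3604 against 2394 and 2197 in WT 2 and WT 3, and its macrophage markers to 61.9 against 126 and 121. The Leydig sum rested on Cyp17a1 (2631 against 1202 and 1138) and Cyp11a1 (519 against 414 and 326). Star, Hsd3b1 and Hsd3b6 were instead lower in WT 1 than in WT 2 and WT 3. What part these differences had in the steps was not tested.

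**Figure D4:**
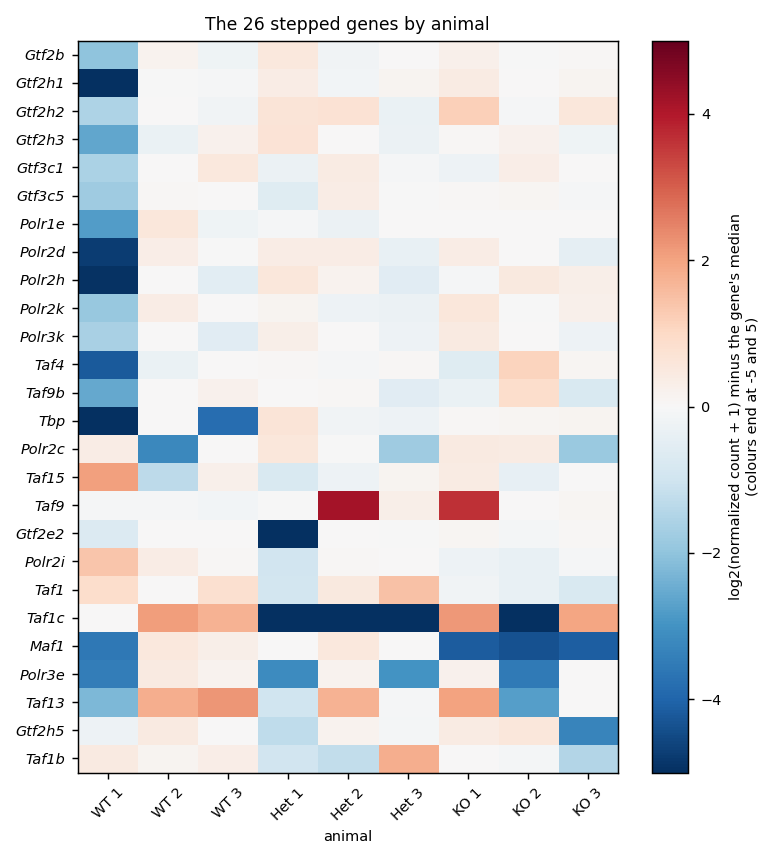
Log2(normalized count + 1) of the 26 stepped genes in each animal, relative to the median of the gene over the 9 animals. WT 1 is the lowest animal in the upper 14 rows, Taf9 is high in Het 2 and KO 1, and Taf1c, Maf1, Polr3e and Taf13 are low in several animals at once.

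Gtf2h1, the p62 subunit of the TFIIH core (chromosome 7, from 46796103 to 46823800, plus strand), had the largest of these steps. It was at 3.71, 707 and 702 in WT, 929, 659 and 793 in Het and 953, 727 and 801 in KO. Only WT 1 was low, and without it the highest of the other animals was 1.45 times the lowest (value + 1). The difference of 2.63 in KO against WT (SE 1.94) and of 2.57 in Het against WT (SE 1.95), with adjusted limma p of 0.649 and 0.779, shrank to 0.22 and 0.16 without WT 1. Hps5, which lies 38 bases away on the other strand, was at 54.5 in WT 1 and at 45.4 to 79.4 elsewhere.

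WT 1 was low in other TFIIH genes as well. Gtf2h2 was at 17.3 there and at 41.3 to 121 elsewhere, and Gtf2h3 at 6.19 and at 33.8 to 69.9. Gtf2h4 (64.4 in WT 1) was lowest in Het 3 at 58.2, and Gtf2h5 (172 in WT 1) in KO 3 at 19.7. Of the TFIIH subunits outside the naming rule, which include the helicase genes and the CDK-activating kinase, Ercc2 was at 6.19 in WT 1, Cdk7 at 42.1, Ccnh at 47.0 and Mnat1 at 66.9, each the lowest of the 9. Ercc3 was at 0 in WT 1, but it was low in most animals, high only in WT 2 (294) and Het 2 (248) and at 4.72 to 24.1 in the rest. The 5 genes whose profile over the 9 animals was most like that of Gtf2h1 were Eef1e1, Psmg1, Fam221a, Popdc2 and Dopey2 (Pearson r of log2(value + 1) 0.997 to 0.998 over 9 animals, of 14865 genes), each with its lowest value in WT 1. In all, 1152 genes had an r over 0.9 with Gtf2h1.

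Further members with their low value in WT 1 came from several complexes. Polr2d, Polr2h and Taf4 had 0 reads in WT 1 and 18.8 to 34.5, 20.1 to 44.4 and 11.2 to 38.7 in the other animals. Polr1e was at 3.71 there against 25.1 to 47.3, Taf9b at 4.95 against 19.7 to 62.9, and Gtf3c5 at 11.1 against 26.5 to 53.1. Gtf2b was at 99.0 against 346 to 572, Polr2k at 54.5 against 169 to 311, Polr3k at 34.7 against 73.4 to 150.3 and Gtf3c1 at 54.5 against 137 to 242. Polr2h overlaps Clcn2 on the opposite strand, which was also at 0 in WT 1 and at 8.68 to 46.6 elsewhere, and Taf4 overlaps the noncoding 4921531C22Rik, at 3.71 in WT 1 and at 81.3 to 163 elsewhere. In both pairs the annotated overlap lies where both genes start, whereas QuantSeq reads 3' ends. Whether any reads were shared was not tested, and the use of strand in counting is not given in the sources used here.

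A few members had their highest value in WT 1 instead. Taf15 was at 99.0 there and at 8.68 to 30.9 elsewhere, Polr2i at 812 against 157 to 397, and Taf10, which was not stepped, at 870.4 against 270.0 to 530.1. Over the 70 members, WT 1 was the highest animal in 18.6%, against 26.1% over all genes with a mean of at least 10.

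**Figure D5:**
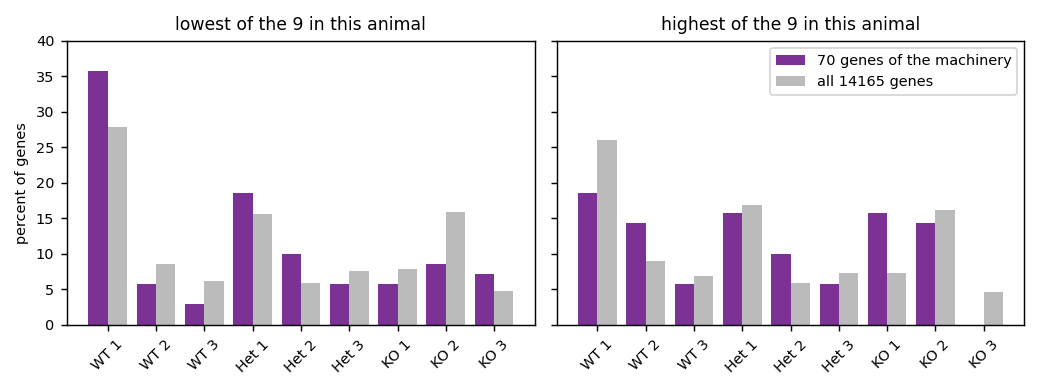
Percent of genes for which each animal was the lowest (left) or the highest (right) of the 9, for the 70 members and for all 14165 genes with a mean of at least 10. WT 1 was lowest in 35.7% of the members and 27.9% of all genes. KO 3 was the highest animal in 0% of the members and 4.67% of all genes.

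Taf9 showed the opposite form, 2 animals far above the rest. The gene (ENSMUSG00000052293, chromosome 13, from 100651579 to 100656060, plus strand) encodes a histone-fold TAF shared by TFIID and SAGA. It was at 228, 229.6 and 216 in WT, 232, 4257 and 289 in Het and 2956, 236 and 251 in KO. Het 2 and KO 1 were far above the other 7 animals, which lay between 216 and 289. Taf9 made up 23.8% of the summed level of the 73 genes in Het 2 and 17.4% in KO 1, and 1.58 to 2.34% in the others. Without Taf9 the sum lay between 11753 and 14079 in all 9 animals, WT 1 being the lowest.

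The WT animals were the 3 lowest for Taf9. The difference was 1.32 in KO against WT (SE 0.97) and 1.55 in Het against WT (SE 1.10), with adjusted limma p of 0.649 and 0.779. Without KO 1 the first was 0.12 and without Het 2 the second was 0.21. The only annotated gene whose exons overlap Taf9 on its own strand is Ak6 (from 100650979 to 100666359). Ak6 had no values of its own in the data, so the Taf9 counts may include its reads. Rad17, 527 bases away on the other strand, was at 329.6 in Het 2 and 423 in KO 1, within the 265 to 404 of the others for the first and just above for the second.

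Few genes shared this profile. The 5 most alike were Tmed10, Pabpc4, Trmt2a, Fastkd1 and Ier2, with Pearson r from 0.877 to 0.952 over the 9 animals, and 2 of 14865 genes had an r over 0.9. Tmed10 was at 352 in Het 2 and 327 in KO 1 against 106 to 175 elsewhere, and Pabpc4 at 74.5 and 51.5 against 2.48 to 11.6. The paralog Taf9b was at 35.4 and 26.6 in the same 2 animals, inside its range in the others.

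In another set of genes low and high animals alternated without regard to genotype. Polr3e, a polymerase III subunit, was at 11.1, 181 and 149.7 in WT, 14.2, 149.9 and 15.9 in Het and 155, 10.6 and 134 in KO. There were 4 low animals (10.6 to 15.9) and 5 high ones (134 to 181), with none between, and both kinds occurred in each genotype. Taf13, a TFIID subunit, was at 8.67, 159 and 209 in WT, 21.7, 152 and 43.4 in Het and 181, 5.80 and 44.7 in KO. It was at 152 to 209 in WT 2, WT 3, Het 2 and KO 1, the same animals that were high in Polr3e apart from KO 3.

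Polr2c was at 567, 46.3 and 444 in WT, 655, 438 and 129 in Het and 606, 595 and 122 in KO, so that 1 animal of each genotype was low. Gtf2e2, the small TFIIE subunit, was at 456, 754 and 748 in WT, 21.7, 737 and 719 in Het and 793, 694 and 774 in KO, low in Het 1 only (KO against Het 1.72, SE 1.34, with an adjusted limma p of 0.973). Gtf2h5 was at 172, 284 and 205 in WT, 84.1, 233 and 193 in Het and 271, 301 and 19.7 in KO. Its lowest animal, KO 3, was a different one again. Taf1b, an SL1 subunit, ran from 20.6 in KO 3 to 209.5 in Het 3. The low animals thus came from different genotypes in these genes.

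The rest of the initiation and elongation apparatus was counted over a list of 69 names outside the naming rule, of which 67 were in the table: the germ-cell variants, the remainder of TFIIH, polymerase I and III initiation factors, Mediator, elongation factors and mitochondrial transcription. None was called by limma in any comparison, where 0.0352% of all genes were called in KO against WT, 0% in Het against WT and 0.0558% in KO against Het. Unadjusted limma p under 0.05 was reached by 7 of 65 in KO against WT (1 higher, 6 lower), beside 8.07% of all genes. It was reached by 5 of 64 in Het against WT (3 higher, 2 lower), beside 3.34%, and by 3 of 64 in KO against Het (2 higher, 1 lower), beside 3.56%. In KO against WT the 6 lower genes were Brf1, a TFIIIB subunit, the polymerase I factor Ubtf, the Mediator genes Med27 and Med29, and the elongation factors Ssrp1 and Supt5, and the 1 higher gene was Snapc3.

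Ubtf, the rDNA-binding factor that works with SL1, was at 53.2, 15.4 and 60.8 in WT, 10.4, 4.66 and 5.29 in Het and 5.15, 17.4 and 12.5 in KO, with an adjusted limma p of 0.610 in KO against WT. Brf1, through which TBP reaches polymerase III promoters, was at 220.4, 190.0 and 198 in WT, 114, 159 and 170.4 in Het and 138, 161 and 125 in KO, also with an adjusted limma p of 0.610, every KO and Het animal below every WT animal. Med26, a Mediator subunit, was at 683, 569 and 680.5 in Het and 253, 293 and 202 in KO, with an adjusted limma p of 0.243 in KO against Het, and at 103, 488 and 384 in WT. The KO and Het animals did not overlap for it, and the WT animals spanned the values of the KO group.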

How the data were processed

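The data were QuantSeq 3' mRNA libraries of testis without the tunica albuginea from 9 mice (3 WT, 3 Het, 3 KO), grouped by the genotype in the labels. Per the labels and the study's methods, the authors trimmed reads with Trim Galore 0.4.5, aligned them with HISAT2 2.1 to GRCm38, counted genes with StringTie 1.3.3 on a merged assembly and removed pseudogenes. The deposited values are signal values, read counts per gene scaled with the DESeq2 factor of each library. Values above 0 came out as multiples of the smallest step of their library in 100% of cases (tolerance 0.001 reads), so reads were recovered from them. All 73 members are named by merged loci, so reads of overlapping genes may be joined: 24 of them overlap the exons of another annotated gene. The labels do not say that animals were littermates, and p-values measure the spread between these animals.

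Groups were compared in pairs with limma 3.58.1 (R 4.3.3) on log2(value + 1), with a trend, over all genes that reached 10 in 3 or more animals, and Benjamini-Hochberg adjustment. Called means an adjusted p under 0.05 and an absolute log2 difference above 1.5, the study's cutoffs. edgeR 4.0.16 and DESeq2 1.42.0 on the recovered reads, TMM factors, reads per library, pseudocounts of 0.5 and 5, no filter, all 9 animals in 1 fit, a replicate block and leaving out each animal were alternatives, and the functions were tested on simulated data. Fold changes understate those of low genes.

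Of the members, 1 is not reported here by name. The members and lists were chosen with earlier results of these data known. The text names Taf9 and Gtf2h1, members called by any tool, those with a low unadjusted p, stepped members, the highest and lowest of each complex, paralog pairs, and the 5 genes most like Taf9 and Gtf2h1. The genes of the wider list that are given with values, Taf10, Hps5, Rad17, Sharpin and Gm35339 were chosen after their values were seen. Promoters came from RefSeq (GRCm38.p6), annotation from a GENCODE release on GRCm38, and tables were handled with Python 3.11.15, numpy 2.4.6, pandas 2.3.3 and matplotlib 3.10.9.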

Additional observations from a re-analysis of the deposited data

How the results depend on the processing

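Of the 22 log2 differences of single genes, 0 changed direction under the alternatives in which the gene was tested. Under the filter in 3 animals, Maf1 was not tested without a WT animal (KO against WT) or without a Het animal (KO against Het), nor Taf1c without a WT animal (Het against WT). Members called in KO against WT numbered 0 and in Het against WT 0, and 1 in each with DESeq2 (Maf1 and Taf1c). Leaving out single animals gave 0 to 1 called in KO against WT, the 1 being Maf1 without WT 1 with the filter eased to 2 animals, an alternative added after seeing the data. In KO against Het the 1 called member, Maf1, became 0 with all 9 animals in 1 fit and with the replicate block, and 0 to 1 with single animals left out. Fits with fewer animals have fewer degrees of freedom, and the cause of the other losses was not tested. With the replicate block (replicate number as a term) 0 members were called in all 3 comparisons. Deviations of same-numbered animals from their genotype means were weakly correlated (-0.115 to -0.028 in KO against WT, -0.028 to 0.188 in Het against WT, -0.140 to 0.067 in KO against Het). With 3 animals per genotype this cannot exclude that the numbers pair them. The number of stepped members, 26, lay between 11 (without WT 1) and 26 with single animals left out. The median of the members moved by less than the spread between animals under every alternative, and reached -0.02 in KO against WT and -0.11 in Het against WT without WT 1. Scaling by reads per library moved the median of all genes to 0.22 in KO against WT, 0.16 in Het against WT and 0.04 in KO against Het, and that of the members to 0.27, 0.20 and 0.10. Summing Taf9 or Gtf2h1 with overlapping genes gave no value, since no other deposited gene overlaps them. At this depth, Taf8, Taf6 and Gtf3a were too low to test.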
